A study of Danio rerio with 6 samples.

Results

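The genes of the mitochondrial genome were followed in whole zebrafish (Danio rerio) embryos at 4 days post fertilization, in which glut12, a gene for a sugar transporter that the files list as slc2a12, was targeted with a splice morpholino. The members were chosen by their position, as all rows with MT in the chromosome column: 37 of 31452 rows. Of these, 13 rows carry the symbols of the mitochondrial protein-coding genes and 24 carry clone-based symbols, AC024175.1 to AC024175.24. RefSeq lists 13 protein-coding genes, 2 rRNA genes and 22 tRNA genes on the zebrafish mitochondrial genome (assembly GRCz12tu), so the 24 clone-named rows correspond in number to the rRNA and tRNA genes. None of the 24 has a name in the gene tables used, and which of them are rRNA cannot be read from the files, so rRNA and tRNA are described together.

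The study had 2 groups of 3 libraries. The glut12 MO group was injected with the glut12 splice morpholino, an antisense oligomer that blocks the joining of exons, and the Control MO group with a control morpholino, so that every embryo of both groups was an injected one. Each library came from a pool of 10 embryos, whose total RNA was treated with DNase I before library preparation. The labels give no strain and do not say whether the pools came from separate clutches or whether poly(A) RNA was selected, and the p-values below rest on pool-to-pool spread, part of which may be technical.

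Mitochondrial DNA is transcribed from both strands into long RNAs that are cut at the tRNAs into separate mRNAs, rRNAs and tRNAs. The mRNAs encode core subunits of respiratory chain complexes I, III and IV and of ATP synthase (complex V), which are assembled together with subunits from nuclear genes. The mitochondrial rRNAs and tRNAs serve the ribosomes inside the mitochondrion, and cells with a high demand for oxidative energy, such as heart and muscle, hold much mitochondrial RNA.

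All values are normalised read counts: reads per gene divided by a size factor of the library and rounded. Library totals of these values lay between 10397713 (glut12 MO 2) and 11762915 (Control MO 1), and the estimated depth between 7550000 reads (Control MO 1) and 15180000 reads (glut12 MO 1). The targeted gene slc2a12 had 98, 97 and 90 in glut12 MO 1, 2 and 3, against 160, 145 and 143 in Control MO 1, 2 and 3 (limma adjusted p = 0.158), and a splice-blocking morpholino need not lower the count of its target. Control MO 1 stood apart from the other controls in the mitochondrial rows. It held the highest value of all 6 libraries for 12 of the 13 protein-coding genes and was 1.03 to 1.31 times the mean of Control MO 2 and 3 for them, with a median of 1.22. Values without it are given beside those with all libraries for the shares, the protein-coding genes and the medians of the nuclear lists. For other rows with a printed log2 fold change, they are given where the values with and without Control MO 1 differ by more than 1.5 times. Over all genes, limma called 0.023% of the 26082 tested, all 6 of them higher in glut12 MO and 0% lower.

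The mitochondrial rows took 4.21%, 4.05% and 3.97% of the library total in glut12 MO 1, 2 and 3, against 4.78%, 3.94% and 4.22% in Control MO 1, 2 and 3. The groups overlapped, and only Control MO 1 lay well above the glut12 MO libraries. The mean shares were 4.08% ± 0.122 in glut12 MO and 4.31% ± 0.425 in Control MO (SD, n = 3 each), a difference of -0.23 percentage points (two-sided exact permutation p = 0.6, where the smallest possible is 0.1). Without Control MO 1 the difference was -0.002 percentage points. When the 100 most abundant genes outside the mitochondrial genome were left out of the total, the shares were 5.48%, 5.14% and 5.09% in glut12 MO, against 6.37%, 5.29% and 5.55% in Control MO. That difference was larger, -0.50 percentage points (exact permutation p = 0.2), and -0.19 without Control MO 1. The 13 protein-coding genes made up nearly all of this share, with 3.98% ± 0.117 in glut12 MO and 4.22% ± 0.415 in Control MO (difference -0.24 percentage points, exact permutation p = 0.5), and -0.015 percentage points without Control MO 1. The 24 clone-named rows took 0.109%, 0.101% and 0.1% in glut12 MO, against 0.112%, 0.0945% and 0.0857% in Control MO (exact permutation p = 0.5). For these 24 rows the mean share was higher in glut12 MO by 0.0057 percentage points, and by 0.013 percentage points without Control MO 1. In pooled whole embryos, such shares cannot tell the number of cells rich in mitochondria from the mitochondrial RNA per cell.

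**Figure D1:**
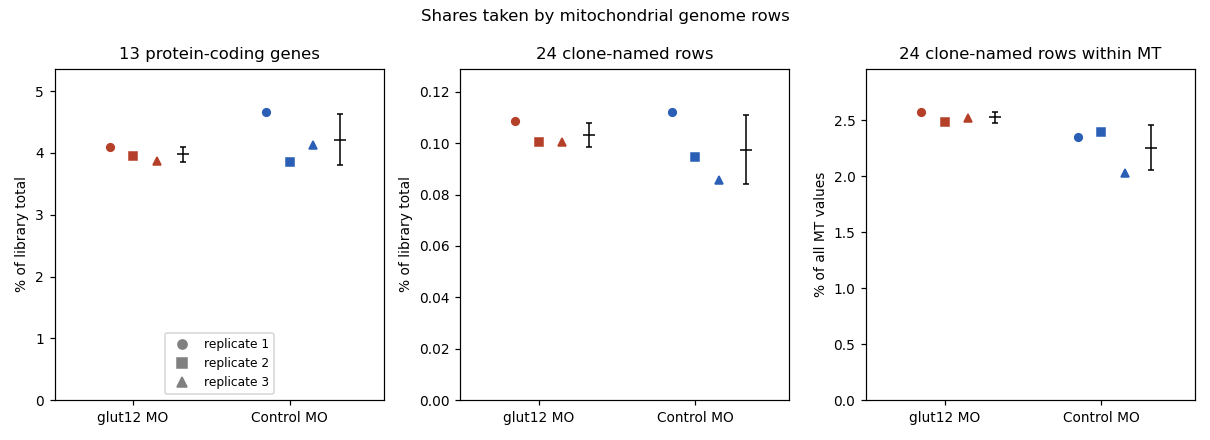
Share of the library total taken by the 13 mitochondrial protein-coding genes (left, %) and by the 24 clone-named mitochondrial rows (middle, %), and the share of all mitochondrial values taken by the 24 rows (right, %), with 1 point per library and the mean with SD beside each group (n = 3). In the left panel the glut12 MO libraries lie between 3.87% and 4.10%, inside the range of the controls, and in the right panel they lie between 2.48% and 2.58%, above all 3 controls.

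For the normalised read counts themselves, all 13 protein-coding genes had a negative log2 fold change (glut12 MO minus Control MO, on the log2(value + 1) scale), with a median of -0.21 and a range of -0.38 to -0.12, where the median of all genes tested was 0 and 49.5% of them were negative. None passed the limma test after Benjamini-Hochberg adjustment over all 26082 genes (lowest adjusted p = 0.183). An unadjusted limma p under 0.05 was found for 3 of the 13 (23.1%), where 6.93% of all genes tested and 23.4% of the 1850 genes with a mean of at least 1000 were lower by that measure. All 3 glut12 MO libraries lay below all 3 controls for 6 of the 13 genes (46.2%). This was so for 2670 of the 26082 genes tested, for 13.6% of those with a mean of at least 50 and for 29.2% of those with a mean of at least 1000. Of the genes with a mean of at least 1000, 68.5% had a negative log2 fold change, and their median was -0.10. Without Control MO 1 the median of the 13 genes was -0.11 and 12 were negative, where 50.1% of all genes were. The count of 6 of 13 below the controls could not change in that fit, since Control MO 1 was the lowest control for none of these genes. Of all genes, 13.7% then had all glut12 MO libraries below both remaining controls. Genes with a mean of at least 1000 had a median of -0.07 without Control MO 1. Their shares negative and below were not counted in that fit. Scaling the libraries to equal totals shifted the all-gene median by 0.11 and gave the 13 genes a median of -0.10, with all 13 negative. With both of these changes together their median was -0.02, and mt-co1, mt-co2, mt-co3 and mt-nd6 were positive.

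The 2 ATP synthase genes kept most of their difference without Control MO 1, which was not particular to them. The log2 fold change with all libraries and without Control MO 1 was -0.14 and -0.12 for mt-nd5, and -0.38 and -0.28 for mt-nd4l. The gene mt-atp8 (ENSDARG00000063910), for a small membrane subunit of complex V, had 10220, 10379 and 10543 in glut12 MO 1, 2 and 3, against 13963, 13062 and 12467 in Control MO 1, 2 and 3. The groups did not overlap, and the glut12 MO libraries lay close together. It was 21.1% lower in glut12 MO, a log2 fold change of -0.34 ± 0.08, with an unadjusted limma p of 0.0030 and an adjusted p of 0.183. Without Control MO 1 it was -0.30 (limma adjusted p = 0.193). The ± of every log2 fold change is the SE from limma (3 and 3 libraries), which also draws on the spread of all genes tested. The gene mt-atp6 (ENSDARG00000063911), which encodes the subunit that forms the proton channel with the ring of c subunits, had 50546, 48132 and 48869 in glut12 MO, against 60515, 56311 and 61297 in Control MO. Its groups did not overlap either, and Control MO 1 was not the highest control for this gene. The log2 fold change was -0.27 ± 0.10 (limma adjusted p = 0.267) with all libraries and -0.26 (limma adjusted p = 0.314) without Control MO 1. The genes mt-atp8 and mt-atp6 overlap (assembly GRCz12tu) and share a transcript in vertebrates, so their reads are not independent, and mt-atp6 also overlaps mt-co3.

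Complex I, which takes electrons from NADH, is served by 7 of the 13 genes. The short gene mt-nd4l (ENSDARG00000063916) had 3895, 3879 and 3733 in glut12 MO 1, 2 and 3, against 5687, 4098 and 5286 in Control MO 1, 2 and 3. The groups did not overlap, and the controls spread over a wider range than the difference between the group means. Its log2 fold change of -0.38 ± 0.12 was the most negative of the 13, 22.9% lower, with an unadjusted limma p of 0.014 and an adjusted p of 0.233. It was -0.28 without Control MO 1 (limma adjusted p = 0.352). The gene mt-nd4, which overlaps mt-nd4l and is carried on the same mRNA in vertebrates, had 24487, 22547 and 23360 in glut12 MO, against 31066, 24220 and 26335 in Control MO. These groups overlapped, and the log2 fold change was -0.21 ± 0.11, and -0.11 without Control MO 1.

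The other subunit genes of complex I had smaller differences than mt-nd4l. For mt-nd1 the values were 25446, 23117 and 22794 in glut12 MO, against 32146, 24168 and 27153 in Control MO (log2 fold change -0.22 ± 0.12, and -0.11 without Control MO 1). For mt-nd2 they were 18091, 15929 and 15519 in glut12 MO, against 23338, 16925 and 18750 in Control MO (-0.24 ± 0.13, and -0.11 without Control MO 1). The groups overlapped for both genes, and Control MO 1 lay farthest from the glut12 MO libraries. The gene mt-nd3 averaged 3018 ± 62.1 in glut12 MO and 3481 ± 442 in Control MO (SD, n = 3 each), again with overlapping groups (-0.20 ± 0.10, and -0.10 without Control MO 1). The gene mt-nd5 was the 1 protein-coding gene whose glut12 MO libraries spread more than its controls, with 16783, 19601 and 19861 in glut12 MO, against 20985, 20182 and 20521 in Control MO. Its groups did not overlap, although glut12 MO 2 and 3 lay close under the controls (log2 fold change -0.14 ± 0.10, limma adjusted p = 0.515, and -0.12 without Control MO 1). The gene mt-nd6 is the 1 protein-coding gene that lies on the other strand, and it overlaps mt-nd5. It had 6100, 5444 and 5733 in glut12 MO, against 6623, 6438 and 5676 in Control MO, with overlapping groups and the log2 fold change nearest to 0 of the 13, -0.12 ± 0.09 (limma adjusted p = 0.558). The value of mt-nd6 was -0.07 without Control MO 1. The use of strand in counting is not given in the sources used here, so reads of mt-nd5 and mt-nd6 in their overlap may not have been told apart.

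**Figure D2:**
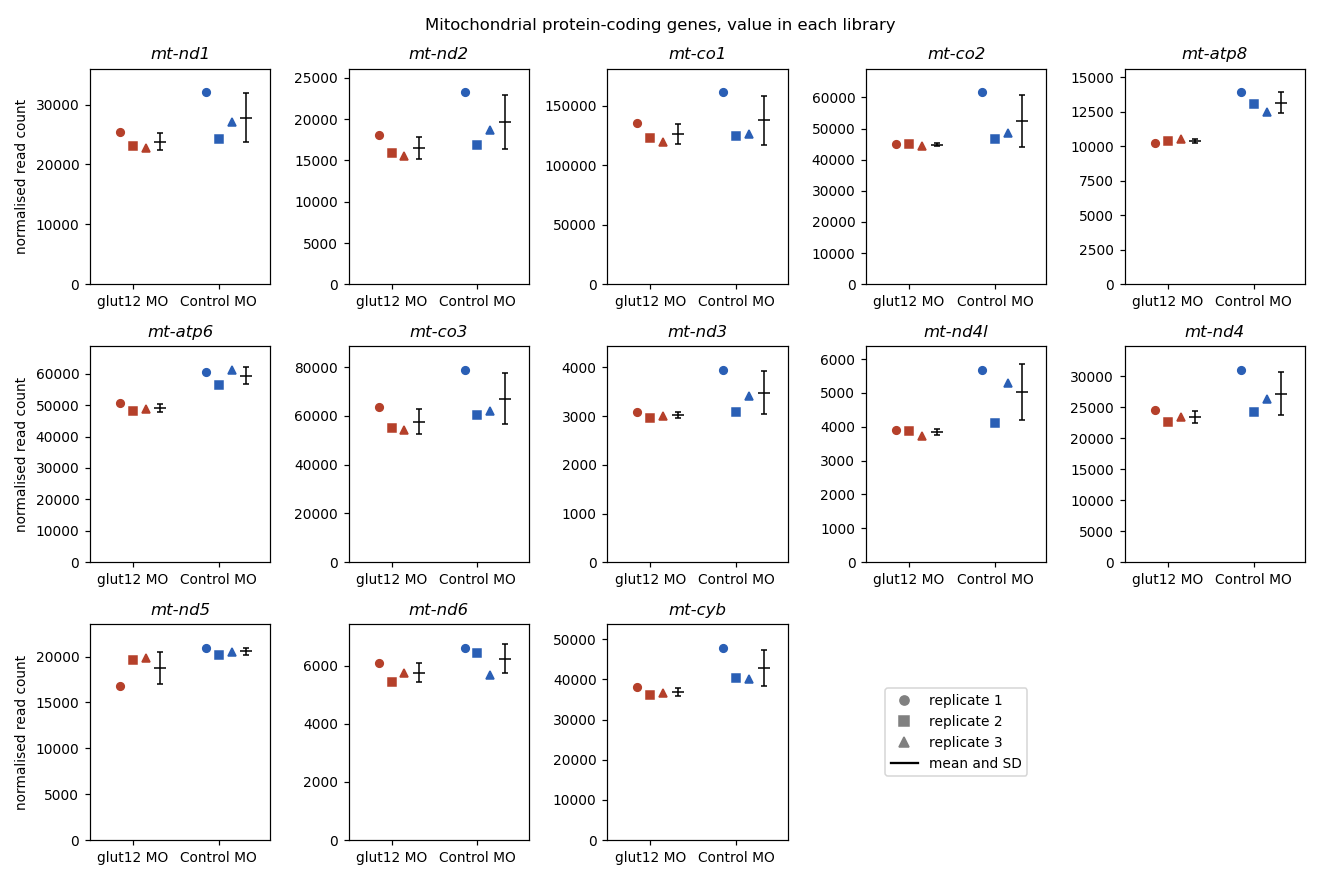
Normalised read count of each of the 13 mitochondrial protein-coding genes in every library (vertical axes start at 0 and differ between panels), with glut12 MO on the left and Control MO on the right of each panel and the mean with SD beside each group (n = 3). Control MO 1 is the highest library for every gene except mt-atp6, and the glut12 MO libraries lie below all controls for mt-co2, mt-atp8, mt-atp6, mt-nd4l, mt-nd5 and mt-cyb.

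The remaining 4 genes encode cytochrome b of complex III and the catalytic core of cytochrome c oxidase, complex IV, and their log2 fold changes lay between -0.21 and -0.12. The gene mt-cyb had 38052, 36165 and 36560 in glut12 MO, against 47930, 40248 and 40147 in Control MO. Its groups did not overlap (log2 fold change -0.21 ± 0.11, limma adjusted p = 0.385), and the value was -0.12 without Control MO 1. The gene mt-co1, which encodes the subunit that holds the site of oxygen reduction, had 135498, 122682 and 119731 in glut12 MO, against 161791, 124939 and 126085 in Control MO. The groups overlapped, and the log2 fold change of -0.12 ± 0.15 (95% interval -0.46 to 0.22) became 0.003 without Control MO 1. For mt-co2, whose product receives electrons from cytochrome c, the values were 45181, 45008 and 44402 in glut12 MO, against 61840, 46785 and 48484 in Control MO. All glut12 MO libraries lay below the controls and within a narrow range, and the difference of -0.21 ± 0.13 was -0.09 without Control MO 1. The gene mt-co3 averaged 57607 ± 5127 in glut12 MO and 67002 ± 10419 in Control MO (SD, n = 3 each), with overlapping groups (-0.21 ± 0.14, and -0.09 without Control MO 1).

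**Figure D3:**
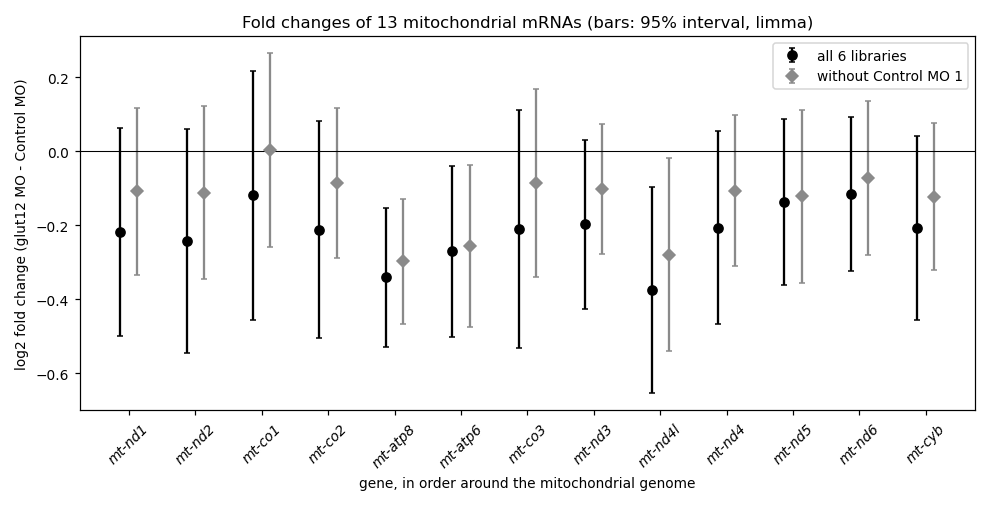
Log2 fold change (glut12 MO minus Control MO) of the 13 mitochondrial protein-coding genes in their order around the mitochondrial genome, with all 6 libraries (black circles) and without Control MO 1 (grey diamonds), where bars are the 95% interval from limma. The intervals of mt-atp8, mt-atp6 and mt-nd4l lie below 0 in both fits, and those of the other 10 genes cross 0.

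The 3 genes with an unadjusted limma p under 0.05, mt-atp8, mt-atp6 and mt-nd4l, also had one without Control MO 1. In that fit 5.12% of all genes were lower by that measure, and genes with a mean of at least 1000 were not counted apart. With equal totals mt-atp8 alone of the 13 had an unadjusted limma p under 0.05, and its log2 fold change was then -0.23. Without Control MO 1 limma called 0.0116% of all genes higher and 0.00386% lower after adjustment, and none of the 13 was among them.

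Shares within the mitochondrial mRNA values need no scaling between libraries. The complex V genes took 13.8%, 14.2% and 14.5% of these values in glut12 MO 1, 2 and 3, against 13.6%, 15.7% and 16.1% in Control MO 1, 2 and 3. Control MO 1 thus lay next to the glut12 MO libraries, below them and apart from the other controls (difference -0.96 percentage points, exact permutation p = 0.4, and -1.74 without Control MO 1). The complex IV genes took 54.4% ± 0.959 in glut12 MO and 53.1% ± 1.79 in Control MO (exact permutation p = 0.4). The difference was 1.21 percentage points, and 2.20 without Control MO 1. The complex I genes took 22.7% ± 0.415 in glut12 MO and 22.8% ± 0.517 in Control MO (exact permutation p = 0.7), a difference of -0.17 percentage points, and -0.30 without Control MO 1. The gene mt-co1 took 30.7%, 29.9% and 29.3% in glut12 MO, against 29.5%, 28.4% and 27.6% in Control MO, where 1 control lay between the glut12 MO libraries (exact permutation p = 0.2). The difference was 1.504 percentage points, and 2.01 without Control MO 1. Adjusted over the 20 shares tested, no share had a p under 0.737. These shares are of reads, which grow with transcript length, and do not rank transcripts by copy number.

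The clone-named rows were divided in direction. Their median log2 fold change was 0.001, with 12 rows negative and 12 positive, between -0.37 and 0.29, and none passed the limma test (lowest adjusted p = 0.287). A single row had an unadjusted limma p under 0.05, higher in glut12 MO, where 8.99% of all genes tested did. No row had all glut12 MO libraries below all controls and 4 rows (16.7%) had all of them above, where 13.6% and 12.4% of genes with a mean of at least 50 did. Without Control MO 1 their median was 0.09, and with equal totals it was 0.11, as was that of all genes. As a share of all mitochondrial values the 24 rows took 2.577%, 2.483% and 2.525% in glut12 MO 1, 2 and 3, against 2.348%, 2.396% and 2.030% in Control MO 1, 2 and 3. The groups did not overlap, which leaving out a library could not change. The difference of 0.27 percentage points had an exact permutation p of 0.1, the smallest that 3 against 3 can give, and an adjusted p of 0.737. It was 0.32 percentage points without Control MO 1.

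Only 3 of the clone-named rows had a mean of at least 1000, and they held 59.9% to 64.5% of the sum of the 24. The row AC024175.9 (ENSDARG00000081369) had 3455, 3176 and 3254 in glut12 MO, against 3571, 3443 and 2872 in Control MO. Its log2 fold change was 0.01 ± 0.10 (95% interval -0.22 to 0.23), and 0.07 without Control MO 1. For AC024175.4 (ENSDARG00000080337) the values were 2604, 2349 and 2377 in glut12 MO, against 3428, 2213 and 1928 in Control MO. Control MO 1 was 1.66 times the mean of the other controls there, and the log2 fold change of -0.003 ± 0.19 was 0.24 without it (limma adjusted p = 0.322). The row AC024175.17 (ENSDARG00000082753) had 1222, 938 and 1010 in glut12 MO, against 1514, 1055 and 880 in Control MO, again with Control MO 1 highest (-0.09 ± 0.19, and 0.12 without Control MO 1).

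Of the other rows, 16 had a group mean between 50 and 1000. Among them AC024175.21 (ENSDARG00000083312) had 475, 424 and 453 in glut12 MO, against 363, 414 and 361 in Control MO, a log2 fold change of 0.25 ± 0.10 (limma adjusted p = 0.287). It was the row with the unadjusted p under 0.05. The groups did not overlap. They did not overlap either for AC024175.19 (0.29 ± 0.13), AC024175.15 (0.23 ± 0.13) and AC024175.8 (0.21 ± 0.14), whose means in that order were 161, 126 and 134 in glut12 MO and 131, 108 and 115 in Control MO. The row AC024175.24 (ENSDARG00000083519) differed between libraries within each group rather than between groups. It had 103, 219 and 104 in glut12 MO 1, 2 and 3, against 115, 115 and 225 in Control MO 1, 2 and 3. The value of glut12 MO 2 was thus 2.12 times the mean of the other glut12 MO libraries and that of Control MO 3 was 1.96 times the mean of the other controls. In Control MO 1, AC024175.5 (656) was 1.73 times the mean of the other controls, and its log2 fold change of -0.08 was 0.20 without that library. The groups also overlapped for AC024175.1, AC024175.3, AC024175.6, AC024175.12, AC024175.14 and AC024175.16. Their log2 fold changes lay between -0.004 and 0.09, and between 0.02 and 0.18 without Control MO 1. For AC024175.2, with overlapping groups as well, the values were 136, 181 and 119 in glut12 MO, against 187, 148 and 230 in Control MO. Its log2 fold change of -0.37 ± 0.21 was the most negative of the clone-named rows, and was -0.36 without Control MO 1. Overlapping groups were also found for AC024175.18 (-0.18), AC024175.13 (-0.16) and AC024175.20 (0.29). Without Control MO 1 these log2 fold changes were -0.04, -0.001 and 0.11 in that order. The remaining 5 rows, AC024175.7, AC024175.11, AC024175.22, AC024175.10 and AC024175.23, had means under 50 in both groups. In AC024175.10 and AC024175.23 these values stood for an estimated 0 to 6 reads per library, and no difference was detectable at this depth.

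**Figure D4:**
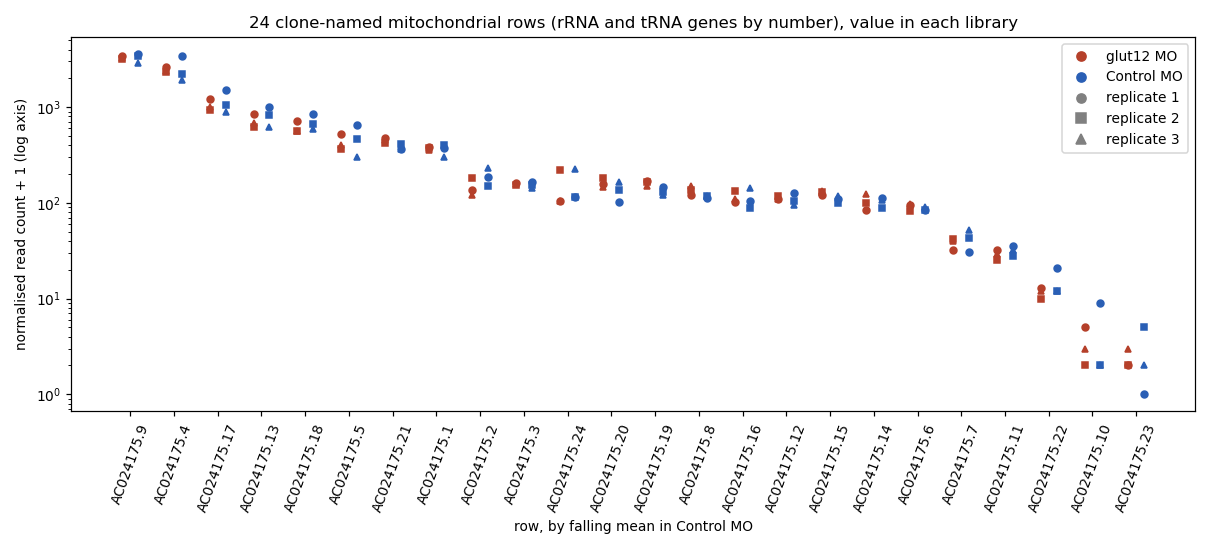
Normalised read count + 1 (log axis) of the 24 clone-named mitochondrial rows in every library, ordered by falling mean in Control MO, with glut12 MO in red on the left and Control MO in blue on the right of each row. AC024175.24 has 1 library of each group, at 219 and 225, apart from the other 4 libraries, which lie between 103 and 115.

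Other short or untailed RNAs were summed in each library for comparison. Of 1414 rows for small nuclear, small nucleolar and similar RNAs, 1147 were at 0 in every library, and the summed values of the other 267 were 328, 400 and 307 in glut12 MO, against 673, 371 and 388 in Control MO. Of 1912 rows for nuclear 5S and 5.8S rRNA copies, 1477 were at 0 in every library, and the other 435 summed to 617, 678 and 594 in glut12 MO, against 1190, 663 and 688 in Control MO. Control MO 1 was the highest in both, as it was for 11 of the 24 clone-named rows. The part of RNA uptake in the values of the mitochondrial rows was not tested.

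The list of nuclear genes that maintain, copy and transcribe mitochondrial DNA had a median log2 fold change of -0.004 over 27 rows. It also holds regulators of nuclear genes, such as pprc1 and nrf1, and dguok appears in it more than once. The median was 0.11 with equal totals, as over all genes, and -0.008 without Control MO 1. None passed the limma test, and at an unadjusted p under 0.05 there were 1 lower and 1 higher (3.7% each), where 6.93% and 8.99% of all genes tested were. All glut12 MO libraries lay below all controls for 5 rows (18.5%) and above them for 2 (7.41%). Of genes with a mean of at least 50, 13.6% lay below and 12.4% above. The gene tfam, whose product packages mitochondrial DNA and starts its transcription, had 287, 238 and 232 in glut12 MO, against 316, 289 and 251 in Control MO (log2 fold change -0.18 ± 0.13, limma adjusted p = 0.534, and -0.10 without Control MO 1). The transcription factor gene tfb2m had 357, 344 and 396 in glut12 MO, against 452, 392 and 374 in Control MO (-0.15 ± 0.11, and -0.07 without Control MO 1). The mitochondrial RNA polymerase gene, listed as POLRMT, had 202, 218 and 210 in glut12 MO, against 232, 219 and 201 in Control MO (-0.05 ± 0.11, and 0.0006 without Control MO 1). The catalytic subunit gene of mitochondrial DNA polymerase, polg, had 137, 128 and 139 in glut12 MO, against 132, 131 and 114 in Control MO (0.10 ± 0.13). The groups overlapped for all 4 genes. The lowest adjusted p-values of this list were those of pprc1, a coactivator of the PGC-1 family (331 ± 9.50 in glut12 MO and 259 ± 7.37 in Control MO, limma adjusted p = 0.197), mpv17 and nrf1. The inner membrane protein gene mpv17, whose loss depletes mitochondrial DNA in mammals, averaged 67.7 ± 9.07 in glut12 MO and 101 ± 11.8 in Control MO (limma adjusted p = 0.217). The transcription factor gene nrf1 averaged 393 ± 39.6 in glut12 MO and 463 ± 29.7 in Control MO (limma adjusted p = 0.321).

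Among 35 genes that process, stabilise or modify mitochondrial RNA, the median was 0.04 (0.07 without Control MO 1), 8 (22.9%) had all glut12 MO libraries above all controls and 4 (11.4%) had them below, where 12.4% and 13.6% of genes with a mean of at least 50 did. None passed the limma test, and at an unadjusted p under 0.05 there were 1 lower (2.86%) and 4 higher (11.4%), where 6.93% and 8.99% of all genes tested were. The gene mto1, which modifies the wobble base of mitochondrial tRNAs, had 454, 480 and 501 in glut12 MO, against 363, 310 and 341 in Control MO. These groups lay well apart (log2 fold change 0.50 ± 0.10, limma adjusted p = 0.158), and the value was 0.55 without Control MO 1. The tRNA isopentenyltransferase gene trit1 averaged 163 ± 17.5 in glut12 MO and 118 ± 11.02 in Control MO (SD, n = 3 each; limma adjusted p = 0.222). The rRNA methyltransferase gene mrm1 had 9, 14 and 9 in glut12 MO, against 25, 22 and 21 in Control MO (log2 fold change -1.04 ± 0.29, limma adjusted p = 0.204). The gene lrpprc, whose product binds mitochondrial mRNAs and protects them, had 1247, 1217 and 1344 in glut12 MO, against 1145, 1132 and 1163 in Control MO (0.15 ± 0.08, limma adjusted p = 0.385). Its groups did not overlap, with the higher values in glut12 MO.

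The list of mitochondrial aminoacyl-tRNA synthetases had a median of -0.01 over 22 rows, and that of mitochondrial translation factors -0.08 over 14. With equal totals these medians were 0.11 and 0.04, and both were -0.02 without Control MO 1. The synthetase list also holds other genes, such as qrsl1. In it yars2 appears more than once, and the hars2 row has the current symbol DTD1. None of these genes passed the limma test. At an unadjusted p under 0.05 there were 2 lower rows of the synthetase list (9.09%) and 1 lower factor (7.14%), where 6.93% of all genes tested were. All glut12 MO libraries lay below all controls for 5 rows of the synthetase list (22.7%) and 1 factor (7.14%). They lay above for 3 rows of the synthetase list (13.6%) and 0 factors. Of genes with a mean of at least 50, 13.6% lay below and 12.4% above. The isoleucyl-tRNA synthetase gene iars2 averaged 533 ± 10.4 in glut12 MO and 629 ± 37.6 in Control MO (limma adjusted p = 0.259). The gene qrsl1, for a subunit of the complex that makes glutaminyl-tRNA, averaged 75.7 ± 13.2 in glut12 MO and 103 ± 8.02 in Control MO (limma adjusted p = 0.283). The cysteinyl-tRNA synthetase gene cars2 averaged 187 ± 10.7 in glut12 MO and 156 ± 10.97 in Control MO (limma adjusted p = 0.321). Of the translation factors, gfm2, which acts in ribosome recycling, had 214, 318 and 299 in glut12 MO, against 338, 469 and 429 in Control MO (log2 fold change -0.58 ± 0.18, limma adjusted p = 0.223). The elongation factor gene gfm1 averaged 586 ± 14.2 in glut12 MO and 654 ± 64.6 in Control MO (limma adjusted p = 0.455), and tufm, the gene of elongation factor Tu, averaged 898 ± 39.8 in glut12 MO and 990.3 ± 104 in Control MO (limma adjusted p = 0.508). Their log2 fold changes were -0.15 and -0.14 with all libraries, and -0.08 and -0.06 without Control MO 1.

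Nuclear genes for respiratory chain and ATP synthase subunits, whose products are built into the same complexes, had a median of -0.26 over 79 rows. In these rows cox5aa, uqcrfs1 and ndufv3 each appear more than once. Of the 79 rows, 37 (46.8%) lay below all controls in all glut12 MO libraries. This was so for 13.6% of genes with a mean of at least 50 and for 29.2% of those with a mean of at least 1000. Their median was -0.15 without Control MO 1, -0.14 with equal totals and -0.06 with both changes. None passed the limma test, and 30 (38.0%) were lower at an unadjusted p under 0.05, where 6.93% of all genes tested and 23.4% of those with a mean of at least 1000 were. The lowest adjusted p-values were those of ndufs5 and ndufb8 of complex I and cox5aa of complex IV (limma adjusted p = 0.180, 0.183 and 0.192). The summed mitochondrial mRNA values were 3.83, 3.80 and 3.54 times those of the nuclear subunits in glut12 MO, against 3.61, 3.45 and 3.72 times in Control MO. This ratio did not separate the groups (exact permutation p = 0.3), and Control MO 1 lay between the other controls in it. The nuclear sum in Control MO 1 was 1.21 times the mean of Control MO 2 and 3, and the mitochondrial mRNA sum was 1.22 times that mean.

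**Figure D5:**
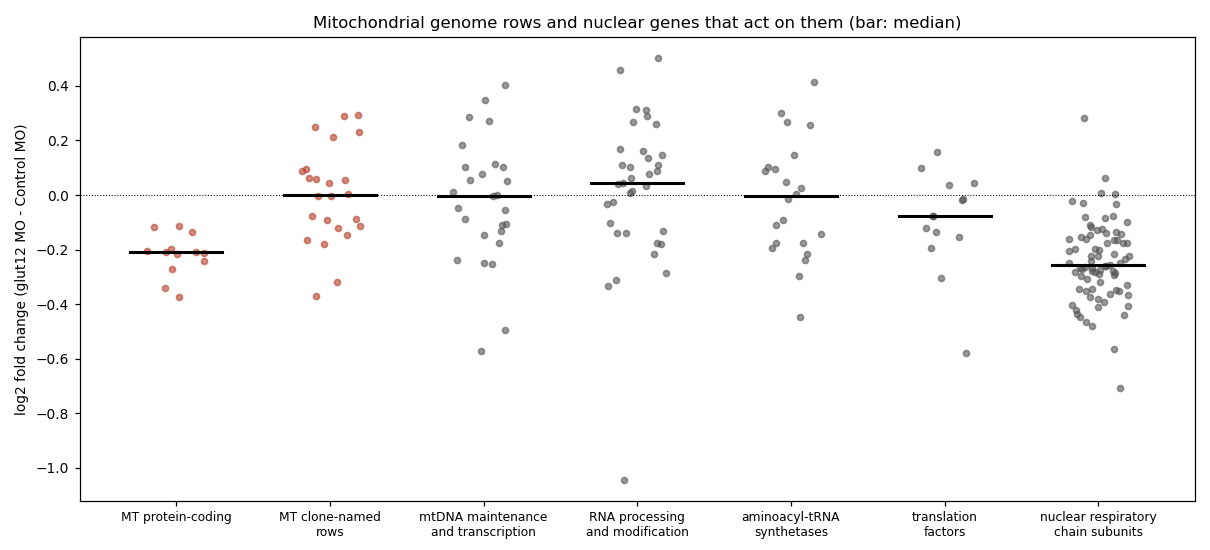
Log2 fold change (glut12 MO minus Control MO) of each mitochondrial genome row (red) and of each nuclear row in 5 lists (grey), with 1 point per row and a black bar at the median. All 13 mitochondrial protein-coding genes and 75 of 79 nuclear subunit rows lie below 0. The medians of the clone-named rows and of the DNA maintenance, RNA processing and synthetase lists lie within 0.05 of 0 on the authors' scaling.

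Marker genes of tissues were compared because the embryos were sequenced whole. All 7 marker lists were detected, with no matched marker at 0 in every library. The summed values of 12 fast muscle genes were 406628 to 465483 in glut12 MO, against 503590.0 to 536467 in Control MO, and all 12 had a negative log2 fold change (6 below all controls in all glut12 MO libraries, 50%). Among genes with a mean of at least 1000, 68.5% were negative and 29.2% lay below in this way. The 10 lens markers summed to 31038 to 36786 in glut12 MO, against 38855 to 49173 in Control MO. Of these, 9 had a negative log2 fold change and bfsp1, listed as CU929052.1, a positive one (0.22, and 0.14 without Control MO 1). All glut12 MO libraries lay below all controls for 8 of the 10 lens markers (80%). The groups did not overlap for either sum. The 7 heart markers summed to 1901 to 2234 in glut12 MO, against 1856 to 1980 in Control MO. Within the heart list 3 of 7 were negative, and none passed the limma test. The log2 fold change was -0.49 for myl7, 0.60 for myh6 and 0.27 for vmhc, which made up the largest part of the sum. Without Control MO 1 the values were -0.34, 0.36 and 0.15 in that order. The 11 markers of ionocytes, skin cells rich in mitochondria, summed to 16519 to 18839 in glut12 MO, against 16785 to 17460 in Control MO. Within the ionocyte list 7 of 11 were negative, and atp1a1a.1, a sodium pump gene, made up the largest part of the sum (8141 to 9243 in glut12 MO, against 7787 to 8050 in Control MO). The calcium channel gene trpv6 rose (limma adjusted p = 0.039, and 0.081 without Control MO 1), with 713, 965 and 916 in glut12 MO, against 369, 375 and 324 in Control MO. The glut12 MO libraries lay below all controls for 3 of the 11 (27.3%), atp1a1a.3, atp6v1aa and foxi3b. They lay above for 2 (18.2%), trpv6 and atp1a1a.1, where 13.6% and 12.4% of genes with a mean of at least 50 lay below and above. The groups overlapped for the sums of the ionocyte, heart, liver, neuron and erythrocyte markers, although single markers separated in both directions. All glut12 MO libraries lay below all controls for 1 of 7 heart, 2 of 9 liver, 1 of 8 neuron and 1 of 7 erythrocyte markers. They lay above for 1 heart, 0 liver, 2 neuron and 1 erythrocyte marker. Of genes with a mean of at least 50, 13.6% lay below and 12.4% above. The part of tissue makeup in the values of the mitochondrial rows was not tested.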

How the data were processed

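The files hold normalised values, a score by unit: per the file headers and a closing line for size factors, reads per gene that the authors divided by a size factor and rounded. Reads were placed on Zv9 according to the submitters' processing notes. The sources used here do not give the aligner, the counter or the use of strand. The worth of 1 read in each library (0.708 to 1.56) was estimated from which low whole numbers occur, and gave the depths. Such values do not suit a count test. They were therefore fitted as log2(value + 1) in limma 3.58.1 (R 4.3.3) by group, with a mean-variance trend. The 26082 genes that reached 1 in 3 or more libraries were tested, and all 37 mitochondrial rows were among them. P-values are two-sided and Benjamini-Hochberg adjusted over these genes at 0.05. Fold changes on this scale understate those of low genes. Shares were compared by exact permutation, 20 in all. The fit was tested on simulated data.

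Members, lists and tests were chosen with earlier results of these data known. Named were all mitochondrial rows, slc2a12, up to 3 genes of lowest adjusted p in each nuclear list, and tfam, POLRMT, tfb2m, lrpprc and polg. The list of translation factors was shortened by smcr7a (MIEF1), a gene of mitochondrial dynamics, after its values were seen. Lines without a gene (12 over all files) were left out. Alternatives were other scalings, totals without the 100 most abundant other genes, filters and pseudocounts, no trend, library weights, the replicate block and each library left out. Leaving out Control MO 1 together with equal totals, and the background of genes with a mean of at least 50, were chosen after seeing the data.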

Additional observations from a re-analysis of the deposited data

How the results depend on the processing

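None of the 13 protein-coding genes passed an adjusted p of 0.05 under any of the 17 alternatives (lowest limma adjusted p 0.0604, mt-atp8, library weights), and 216 of 221 values were negative. Filters, pseudocounts, the fit without trend and the replicate block could not change a sign at these values. Recomputed size factors lay between 1.009 and 1.011 in all libraries and could not either. Only the scalings to equal totals, the library weights and the left-out libraries could. The 5 values that were not negative were mt-co1 without Control MO 1 (0.0032) and, without Control MO 1 and with equal totals, mt-co1 (0.10), mt-co2 (0.0056), mt-co3 (0.0057) and mt-nd6 (0.020). That last pair of changes gave medians of -0.017 for the protein-coding genes, 0.18 for the clone-named rows, 0.083 for DNA maintenance, 0.16 for RNA processing, 0.068 for the synthetases, 0.075 for translation factors and -0.060 for nuclear subunits. Equal totals gave medians of 0.11 (clone-named rows), 0.11 (DNA maintenance), 0.15 (RNA processing), 0.11 (synthetases) and 0.036 (translation factors). Equal totals of the other genes gave 0.11, 0.10, 0.15, 0.10 and 0.032 in that order.

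Leaving out each library in turn gave medians of -0.29 to -0.11 (protein-coding), -0.07 to 0.09 (clone-named rows), -0.094 to 0.012 (DNA maintenance), -0.0074 to 0.071 (RNA processing), -0.074 to -0.0045 (synthetases), -0.13 to -0.016 (translation factors) and -0.31 to -0.15 (nuclear subunits). For mt-co1 it gave -0.18 to 0.0032. The difference in mitochondrial share was -0.42 to -0.0020 percentage points. For the clone-named rows it was -0.00017 to 0.013 percentage points, negative without Control MO 3. With the 100 most abundant other genes left out of the total, the differences were -0.50 (mitochondrial), -0.50 (protein-coding) and 0.0027 percentage points (clone-named rows).

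The count of genes called over all features, 6 in the report, was 11 with equal totals, 11 with equal totals of the other genes, 27 without a filter, 14 at a mean of at least 10, 2 with a pseudocount of 0.1, 17 with one of 5, 30 without trend, 329 with library weights, 50 without Control MO 1 and with equal totals, and 1 to 5 without single libraries. The gene slc2a12 had a limma adjusted p of 0.0467 with library weights. Same-numbered libraries deviated together with r of 0.104, -0.059 and 0.118, and glut12 MO 2 correlated best with Control MO 3 (0.212). The main fit was by group only and did not use the numbers as pairs. With 3 libraries centred within each group, these r values cannot show whether pools were paired. With the replicate block 2 genes were called. In this balanced design the block cannot move a median or a share, so their unchanged values say nothing of stability. The causes of these changes were not tested. In simulated data for this comparison 4.18% of 1.5-fold and 58.8% of 2-fold changes were recovered over 26082 genes.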
